A study of Mus musculus with 6 samples.

Results

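Type 1 conventional dendritic cells (cDC1) are described here in CD45+ kidney cells of mice with rhabdomyolysis-induced acute kidney injury and of control mice. A barcode was counted as cDC1 when it carried 1 or more transcript molecules (UMIs) of Xcr1 or Clec9a, when the invariant chain gene Cd74 made up at least 1% of its gene UMIs and the complement genes C1qa, C1qb and C1qc together less than 0.3%, and when it held no UMI of the B cell gene Cd79a or the T cell gene Cd3e. The filters on quality asked for 500 gene UMIs and 200 genes or more per barcode, a mitochondrial part of up to 15%, and Malat1, a nuclear RNA, at 0.3% or above. The members were thus chosen by the measured UMIs of these genes, which are no findings here. The rule found 136 cDC1 among 12596 barcodes that passed these filters. Of these, 23 came from the rhabdomyolysis libraries and 113 from the control libraries.

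The study profiled live CD45+ cells, sorted from digested kidneys of 8 week old C57BL/6J mice, by droplet single-cell RNA sequencing, and the count matrices also hold 6 antibody tags. There were 3 libraries from mice with rhabdomyolysis and 3 from controls. The labels give the injury only by name, without dose or time, and do not say whether each library is a separate animal, so p-values measure the spread between libraries. Genes with a low count in 23 cells were often not testable, and the 3 rhabdomyolysis libraries held 3, 4 and 16 cDC1 (replicates 1, 2 and 3), against 51, 38 and 24 in the control libraries.

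Conventional dendritic cells take up antigen in tissues and carry it to T cells. The cDC1 branch depends on the transcription factors IRF8 and BATF3 and on the growth factor FLT3L, and is known for cross-presentation, the loading of engulfed antigen onto MHC class I for CD8 T cells. Its surface receptor XCR1 binds the chemokine XCL1 made by NK cells and CD8 T cells, and its receptor CLEC9A binds actin filaments exposed by dead cells. The cDC2 branch, which depends on IRF4 and presents mainly on MHC class II to CD4 T cells, is the nearest relative. It was taken from the same gate as barcodes with no Xcr1 and no Clec9a UMI and at least 1 UMI of Cd209a, a lectin gene. That set held 93 barcodes from rhabdomyolysis and 297 from control libraries.

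The 2 genes of the rule did not choose the same cells. In rhabdomyolysis, 9 cDC1 carried UMIs of both genes, 8 of Xcr1 alone and 6 of Clec9a alone, and in controls the numbers were 71, 8 and 34. As a description of what the rule used, Xcr1 was at 314, 70.2 and 180.5 CPM, the count scaled to a library sum of 1000000 gene UMIs, in the summed cDC1 of the rhabdomyolysis libraries, against 354, 390.3 and 539.9 CPM in controls. Clec9a was at 171, 93.7 and 61.8 CPM in rhabdomyolysis, against 267, 249 and 240 CPM in controls. Exactly 1 UMI of the 2 genes together placed 9 rhabdomyolysis and 25 control barcodes inside the rule, and 268 rhabdomyolysis and 394 control barcodes of the same gate with none lay outside. Just outside the Cd74 threshold, between 0.5% and 1%, lay 2 rhabdomyolysis and 17 control barcodes with an Xcr1 or Clec9a UMI. Just outside the C1q threshold, between 0.3% and 0.6%, lay 3 and 27 such barcodes, and a further 0 and 363 lay above 0.6%.

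The label was checked against 18 other cDC1 marker genes, counted per barcode in barcodes of at least 3000 gene UMIs. Members with an Xcr1 UMI held a median of 10 of the 18 in rhabdomyolysis (n = 17 barcodes) and 13 in controls (n = 74). Members with Clec9a alone held a median of 7.5 in rhabdomyolysis (n = 6) and only 3 in controls (n = 27), the same as the 3 of control cDC2 (n = 277), while rhabdomyolysis cDC2 held 2 (n = 92). Thinned to 3000 UMIs each, the medians were 6 in rhabdomyolysis and 8 in control Xcr1 members, 2 and 1 in members with Clec9a alone, and 1 and 1 in cDC2. The marker genes therefore bore out the label for most members with Xcr1 and not for most control members with Clec9a alone. Of the 34 control members with Clec9a alone, 25 carried a UMI of the cDC2 gene Cd209a, against 2 of 79 with Xcr1. Naaa, an acid amidase gene typical of cDC1, was present in 15 of the 34 and in 76 of the 79. Of the 17 rhabdomyolysis members with Xcr1, 13 carried Naaa, 12 carried Irf8 and 2 held fewer than 3 of the 18 markers. Of the 79 control members with Xcr1, 78 carried Irf8 and 1 held fewer than 3 markers.

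**Figure D1:**
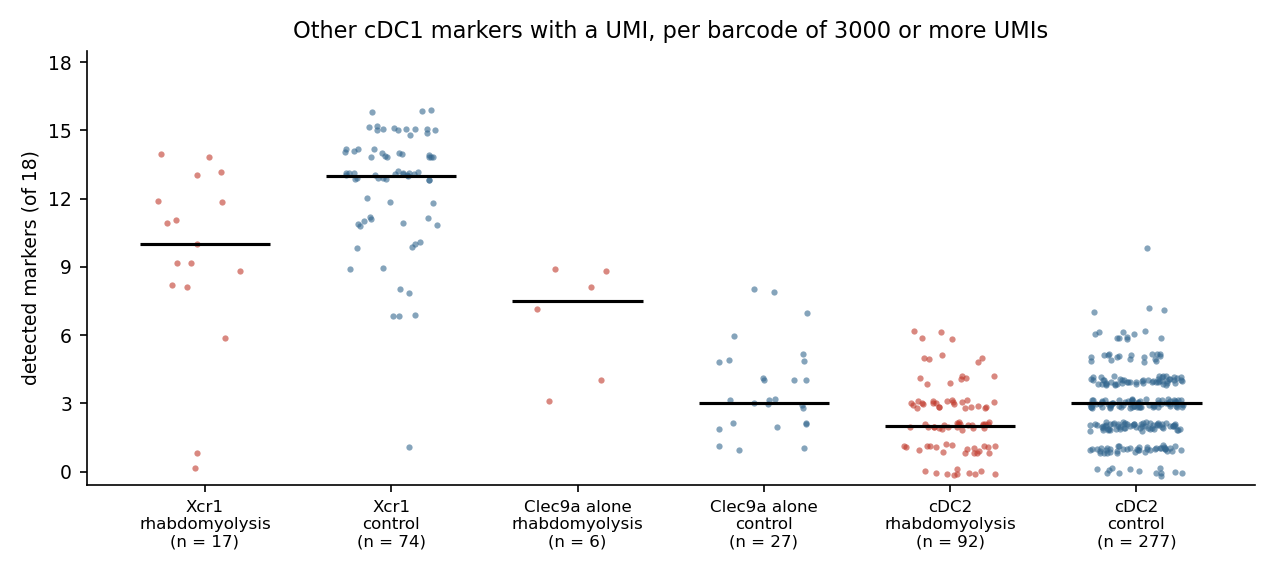
Number of 18 other cDC1 marker genes detected (y axis) per barcode of 3000 or more gene UMIs, unthinned, for Xcr1 members, Clec9a-alone members and cDC2 (x axis), in red for rhabdomyolysis and blue for control. Points are barcodes, jittered, and lines are medians, with control Clec9a-alone members at a median of 3 and control Xcr1 members at 13.

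The 4 cDC1 of rhabdomyolysis replicate 2 stood apart from the other libraries. Their Naaa level was 0 CPM, against 627 and 646 CPM in replicates 1 and 3. Their level of Cst3, the cystatin C gene abundant in conventional dendritic cells, was 3676 CPM, against 21928 and 20629 CPM in replicates 1 and 3 and 22682 to 27179 CPM in controls. Results on rhabdomyolysis are therefore also given from Xcr1 members alone and without this library where that changes them. No cDC1 barcode was shared between libraries. Median gene UMIs per cDC1 were 11291, 10342 and 12954 in rhabdomyolysis and 12155, 11645 and 13538 in controls, while all passing barcodes had medians of 4597 to 6191 in rhabdomyolysis and 3608 to 3847 in controls. None of the 23 rhabdomyolysis cDC1 (0 of 23), against 29 of 113 control cDC1, lay above the 99th percentile of gene UMIs of their library. A gene that defines another cell type had 2 or more UMIs in 2 rhabdomyolysis and 18 control cDC1.

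cDC1 were a small share of the sorted cells, and smaller on average in rhabdomyolysis. They made up 0.296%, 0.261% and 1.06% of passing barcodes in rhabdomyolysis, against 1.47%, 1.34% and 1.07% in controls. The exact 95% Clopper-Pearson intervals, which cover counting error only, were 0.0611% to 0.863%, 0.0712% to 0.667% and 0.608% to 1.72% in rhabdomyolysis, against 1.10% to 1.93%, 0.953% to 1.84% and 0.686% to 1.59% in controls. Replicates 1 and 2 of rhabdomyolysis were low, and replicate 3 was next to the lowest control. The means were 0.540% ± 0.453 in rhabdomyolysis and 1.29% ± 0.205 in controls (SD, n = 3 each), a ratio of 0.417, with a two-sided exact permutation p of 0.1, the smallest that 3 against 3 libraries allow. Without rhabdomyolysis replicate 3 the rhabdomyolysis mean was 0.279%.

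The scarcity had been seen in these data before the cells were chosen, and the share is not independent evidence of it. Counting only members with Xcr1 gave means of 0.408% in rhabdomyolysis and 0.912% in controls. With each barcode thinned to 1000 gene UMIs, the means were 0.0573% in rhabdomyolysis and 0.600% in controls, from 1, 0 and 1 of 960, 1475 and 1474 barcodes against 18, 18 and 13 of 3390, 2712 and 2149. Barcodes of under 1000 UMIs were left out there and the filters were applied again to the thinned counts. Means without the Malat1 threshold were 0.165% in rhabdomyolysis and 1.25% in controls. Within the gate of Cd74-high, C1q-low barcodes, cDC1 were 6.00%, 3.88% and 11.6% in rhabdomyolysis, against 26.8%, 19.1% and 20.3% in controls. Set against cDC1 and cDC2 together, they were 13.6%, 12.5% and 25.8% in rhabdomyolysis and 32.3%, 24.8% and 24.2% in controls. Those groups overlapped, with means of 17.3% ± 7.38 and 27.1% ± 4.48 (SD, n = 3 each) and an exact permutation p of 0.3. Without barcodes carrying 2 or more UMIs of a defining gene of other cells the groups also overlapped, at means of 0.496% in rhabdomyolysis and 1.09% in controls (exact permutation p = 0.2). They overlapped too, at 0.187% in rhabdomyolysis and 0.358% in controls (exact permutation p = 0.2), without barcodes above the 99th percentile of UMIs or with 2 or more UMIs of another lineage list. Other cell types moved at the same time, with T cells at a mean of 3.77% of passing barcodes in rhabdomyolysis and 16.5% in controls, and B cells at 5.06% and 10.4%. A share cannot separate fewer cDC1 from more of the other cells, nor from fewer Xcr1 and Clec9a UMIs per cDC1. Both genes were lower in the members of every rhabdomyolysis library than of any control, as given above. A cell with no UMI of either falls outside the rule, and the part of this in the share was not tested.

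**Figure D2:**
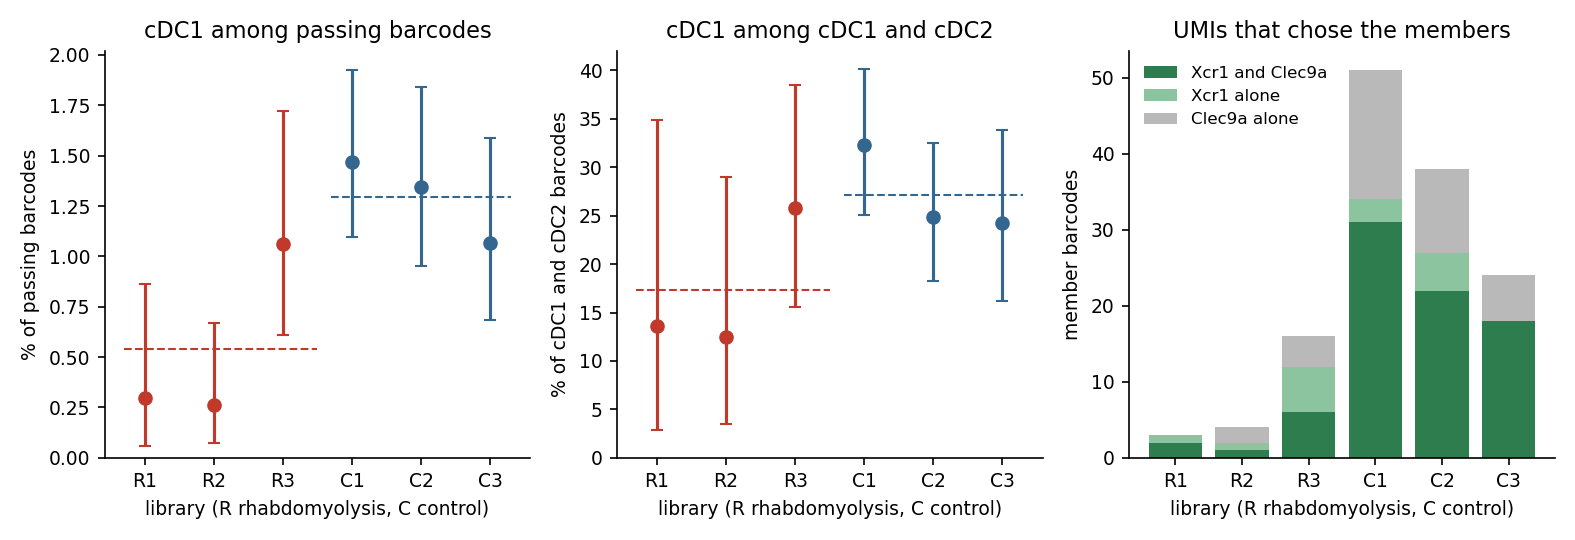
cDC1 as a percentage of passing barcodes (left) and of cDC1 plus cDC2 (middle), and the number of members by the UMIs that chose them (right), in rhabdomyolysis libraries R1 to R3 and control libraries C1 to C3. Points are libraries, bars on them exact 95% intervals and dashed lines group means. Rhabdomyolysis replicate 3, at 1.06% of passing barcodes, lies beside control replicate 3 at 1.07%.

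The cDC1 program was read by comparing cDC1 with cDC2 inside the same libraries. Only libraries with at least 10 barcodes of both sets entered, which left rhabdomyolysis replicate 3 and the 3 controls. Of 5913 genes tested with edgeR's quasi-likelihood test and the library as a block, 369 were higher in cDC1 (6.24%) and 453 were lower (7.66%) at a Benjamini-Hochberg adjusted p under 0.05. All 16 of the cDC1 marker genes that could be tested were higher, of 18 listed beside the 2 rule genes, with a median log2 fold change of 3.75 beside -0.00 over all genes tested. These markers had been chosen as known cDC1 genes, so their direction describes the label.

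Irf8, the transcription factor gene on which cDC1 depend, had 328 CPM in cDC1 of rhabdomyolysis replicate 3 and 1501, 1253 and 1439.8 CPM in cDC1 of controls 1 to 3, against 33.8, 34.4, 53.0 and 127 CPM in cDC2 of the same libraries. The lowest cDC1 value exceeded the highest cDC2 value, and the log2 fold change was 4.29 ± 0.26 (SE, edgeR adjusted p = 4.27e-07). Batf3, its partner factor, differed less, with 166, 155, 219 and 158 CPM in cDC1 and 49.7, 127, 96.2 and 82.5 CPM in cDC2 (log2 0.96 ± 0.20, edgeR adjusted p = 0.00591). Its call was lost without control replicate 2 (log2 0.88, edgeR adjusted p = 0.0773). Id2, an inhibitor of E proteins needed for cDC1, had 1477, 893, 1012 and 1045 CPM in cDC1 and 781, 165, 140.4 and 173 CPM in cDC2 (log2 2.21 ± 0.24, edgeR adjusted p = 3.5e-05). Of 19 tested factors of dendritic cells, 3 were higher and 4 lower, among the lower Zeb2 (log2 -2.17), Irf4 (-1.62) and Klf4 (-1.23), factors of the cDC2 and monocyte branches. Irf4 lost its call without control replicate 1 (log2 -1.27, edgeR adjusted p = 0.121).

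Genes of the endosome and lysosome were among those higher in cDC1. Rab7b, a small GTPase of late endosomes, had 114, 168, 189 and 265 CPM in cDC1 against 9.94, 10.4, 4.41 and 5.41 CPM in cDC2 (log2 4.66 ± 0.27, edgeR adjusted p = 2.94e-07). Naaa had 646, 1015, 1057 and 1146 CPM against 57.7, 101, 79.5 and 58.1 CPM (log2 3.72 ± 0.16, edgeR adjusted p = 3.76e-08). Ppt1, a lysosomal thioesterase, had 256, 888, 860.2 and 843 CPM against 65.6, 51.1, 47.7 and 59.5 CPM (log2 3.69 ± 0.26, edgeR adjusted p = 1.0e-06). As for Irf8, the Ppt1 level of rhabdomyolysis replicate 3 was far below those of the controls. Tlr3, the endosomal receptor for double-stranded RNA, had 71.3, 133, 124 and 123 CPM in cDC1 against 9.94, 2.09, 1.77 and 4.06 CPM in cDC2 (log2 4.95 ± 0.35). Wdfy4, required for cross-presentation by cDC1, had 99.8, 267, 273 and 212 CPM against 49.7, 67.8, 63.6 and 60.9 CPM (log2 1.84 ± 0.18).

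Among surface genes, Cd24a, which encodes a glycoprotein used to sort cDC1, had 104, 171, 184 and 180.0 CPM in cDC1 against 43.7, 1.04, 11.5 and 5.41 CPM in cDC2 (log2 3.78 ± 0.46, edgeR adjusted p = 0.000104). Itgae, the CD103 integrin chain, was 4.21 higher on the log2 scale and Cadm1, an adhesion molecule, 3.43. Cxcr3, a receptor for interferon-induced chemokines, had 14.2 CPM in cDC1 of rhabdomyolysis replicate 3 and 129.6, 114 and 126 CPM in control cDC1, against 0, 15.6, 13.2 and 25.7 CPM in cDC2 (log2 2.86 ± 0.24). Cst3 was at 20629 to 27179 CPM in cDC1 and at 6831 to 8884 CPM in cDC2 (log2 1.58 ± 0.09). Of the 15 genes with the largest rises, 2 more, Ifi205 and Ifi211, belong to an interferon-inducible family of DNA-binding proteins. Ifi205 had 727, 274, 271 and 445 CPM against 37.8, 19.8, 1.77 and 40.6 CPM (log2 4.22 ± 0.30), and Ifi211 had 323, 129.6, 216 and 268 CPM against 65.6, 58.4, 30.9 and 63.6 CPM (log2 2.07 ± 0.22). Rtl8a and Rtl8b, retrotransposon-derived genes, were higher by 3.46 and 3.62 on the log2 scale.

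The promoters of Irf8, Batf3, Ifi205 and Ifi211 are shown because they are genes of the program whose first 250 bases upstream of a start held a searched motif. Motifs were GAAANNGAAA, the interferon-response element, GGAANNGAAA, an ETS-IRF composite, the AP-1 site bound by BATF with JUN, with any middle base, and TTCNNNGAA, the STAT site, each searched on both strands. Sequences are from RefSeq on GRCm38.p6, on the gene's strand, with matches in capitals.
Irf8, chr8:120736108-120736357, plus strand: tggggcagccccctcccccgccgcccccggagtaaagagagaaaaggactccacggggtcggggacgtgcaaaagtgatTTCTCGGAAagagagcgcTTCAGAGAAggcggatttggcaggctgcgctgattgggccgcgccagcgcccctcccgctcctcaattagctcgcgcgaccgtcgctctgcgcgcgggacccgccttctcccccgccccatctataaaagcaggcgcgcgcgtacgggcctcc
Batf3, chr1:191098164-191098413, plus strand: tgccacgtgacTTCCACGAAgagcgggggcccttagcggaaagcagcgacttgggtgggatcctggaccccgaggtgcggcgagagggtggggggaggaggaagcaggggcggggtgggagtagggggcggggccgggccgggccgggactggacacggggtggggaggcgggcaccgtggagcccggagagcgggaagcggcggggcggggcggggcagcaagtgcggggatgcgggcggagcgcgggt
Ifi205, chr1:174031756-174032005, minus strand: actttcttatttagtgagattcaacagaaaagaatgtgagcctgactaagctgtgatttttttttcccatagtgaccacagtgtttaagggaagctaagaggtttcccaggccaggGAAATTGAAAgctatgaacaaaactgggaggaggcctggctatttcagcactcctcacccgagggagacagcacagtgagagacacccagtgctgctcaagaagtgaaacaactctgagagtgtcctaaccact
Ifi211, chr1:173913047-173913296, minus strand: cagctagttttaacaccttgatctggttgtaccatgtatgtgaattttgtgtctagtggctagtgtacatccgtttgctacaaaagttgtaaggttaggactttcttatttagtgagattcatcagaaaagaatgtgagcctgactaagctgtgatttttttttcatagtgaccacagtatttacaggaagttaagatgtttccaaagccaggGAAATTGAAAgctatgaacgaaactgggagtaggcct
Irf8 held 2 STAT-type matches that begin 171 and 153 bases before the start, Batf3 held 1 that begins 239 bases before it, and Ifi205 and Ifi211 each held 1 GAAANNGAAA match, beginning 134 and 37 bases before it. Of the 15 genes named by rule as higher in cDC1 than in cDC2, 12 matched a RefSeq promoter, of which 2 held GAAANNGAAA, 1 TTCNNNGAA and 0 the other motifs. The shares of all 32851 promoters with a match were 2.98% for GAAANNGAAA, 2.30% for GGAANNGAAA, 6.75% for the AP-1 site and 7.02% for TTCNNNGAA. A match is a stretch of letters and no sign of binding.

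Genes of cDC2 and of inflammatory signals were lower in cDC1. Of 9 tested cDC2 markers, 8 were lower and 0 higher (median log2 -2.25), among them Clec10a and Mgl2, lectin receptors, and Sirpa, the receptor for CD47. Mgl2 had 128, 118, 67.1 and 94.7 CPM in cDC1 against 964, 788, 600.4 and 385 CPM in cDC2 (log2 -2.70 ± 0.17, edgeR adjusted p = 4.63e-07). Clec10a had 28.5, 112, 117 and 34.7 CPM against 358, 515, 682 and 609 CPM (log2 -2.83 ± 0.23), and Itgam, the CD11b chain, 61.8, 11.2, 17.4 and 25.3 CPM against 231, 145, 161 and 114 CPM (log2 -2.70 ± 0.27). Of 18 tested chemokines and cytokines, 0 were higher and 8 lower (median log2 -0.84), with the lymphocyte-attracting chemokine gene Ccl5 at -3.53. Il1b, the interleukin 1 beta gene, had 451, 25.6, 47.2 and 37.9 CPM in cDC1 against 1648, 129, 60.9 and 279.9 CPM in cDC2 (log2 -1.87 ± 0.26). Immediate early and dissociation-response genes followed, with 17 of 27 lower and 1 higher (median log2 -0.72), for example Junb at -1.21 and Jun at -0.83.

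Presentation genes were called in both directions. Of 28 tested genes of cross-presentation and MHC class I loading, 11 were higher and 3 lower in cDC1 (median log2 0.18), including the immunoproteasome subunits Psmb8 (log2 0.60) and Psmb9 (0.91) and the proteasome activator Psme1 (0.90). Psmb8 had 1078, 1199, 1131 and 1216 CPM in cDC1 against 680.1, 756, 747 and 918 CPM in cDC2, so the sets did not overlap. Of 17 tested genes of MHC class II presentation, 1 was higher and 9 lower (median log2 -0.40). H2-Ab1, a class II chain, had 12882, 10491, 11368 and 11326 CPM in cDC1 against 19613, 14188, 14325 and 14143 CPM in cDC2 (log2 -0.40 ± 0.08, edgeR adjusted p = 0.00297), and its call was lost without control replicate 1 (log2 -0.37, adjusted p = 0.0548) or 2 (-0.41, adjusted p = 0.0770). Ctss, a protease that trims the invariant chain, had a log2 fold change of -0.92. Cd86, a costimulatory ligand, had 162, 112, 157 and 215 CPM in cDC1 against 161, 44.8, 47.7 and 64.9 CPM in cDC2 (log2 1.23 ± 0.24). Its cDC1 level exceeded the cDC2 level clearly in the 3 controls and by little in rhabdomyolysis replicate 3, and without control replicate 2 its adjusted p was 0.0525 (log2 1.08).

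The remaining lists were mixed or gave few calls. Of 19 tested genes of adhesion and costimulation 7 were higher and 4 lower, of 20 chemokine and growth factor receptors 2 and 6, of 13 sensors 2 and 3, and of 25 type I interferon genes 6 and 2. Of 16 apoptosis and survival genes 0 were higher and 3 lower, of 22 heme, iron and oxidative stress genes 1 and 6, of 9 glucocorticoid-response genes 1 and 4, and of 19 injury genes of other kidney myeloid cells 1 and 5. Ribosomal protein genes were higher in 7 of 36 and lower in 0, oxidative phosphorylation genes in 2 of 32 and 0, glycolysis genes in 3 and 2 of 16, and cell cycle genes in 0 and 0 of 19. Of 8 plasmacytoid dendritic cell markers 5 were higher and 0 lower, but with Xcr1 members alone 0 of 6 were higher and 3 lower. Bst2, an interferon-induced surface protein on that list, turned from a log2 of 0.67 to -0.34 when only Xcr1 members were used, and Ly6c2, a monocyte surface gene, from 1.30 to -2.41. Of 9 macrophage markers 1 was higher and 6 lower, and of 9 mature dendritic cell markers 1 and 1. With Xcr1 members alone, 1 of 8 mature dendritic cell markers was higher and 6 were lower. In that setting 0 of 16 apoptosis and survival genes were higher and 7 lower, and of 17 chemokines and cytokines 0 and 13. Over all 5494 genes tested with Xcr1 members alone, 412 were higher and 530 lower. All 30 genes named here by size of change kept their call without each of the 4 libraries in turn, although the total count fell to 195 higher and 210 lower without control replicate 1, 201 and 226 without control replicate 2 and 227 and 266 without control replicate 3.

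**Figure D3:**
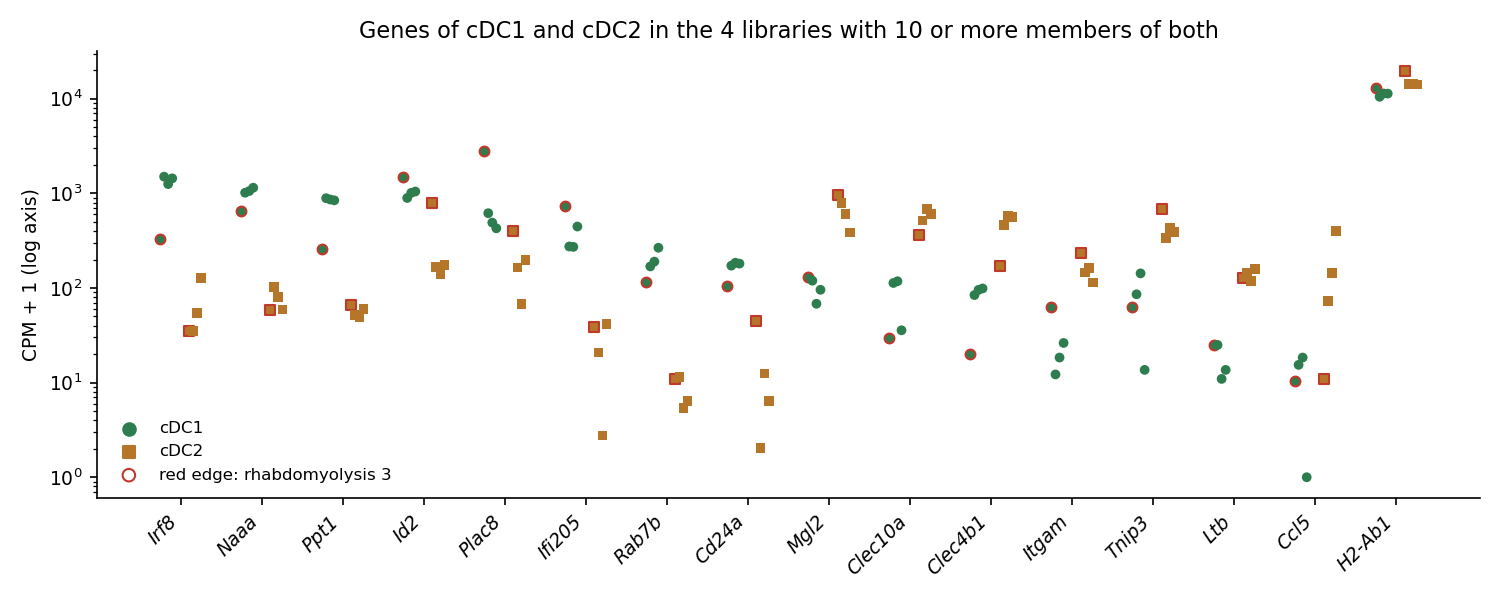
Level of 16 genes as CPM + 1 (log axis) in cDC1 (circles) and cDC2 (squares), each symbol 1 library, with rhabdomyolysis replicate 3 edged in red beside the 3 controls. Irf8 and Ppt1 in cDC1 of rhabdomyolysis replicate 3, at 328 and 256 CPM, lie below the 3 control cDC1 values and above cDC2.

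What was left of the program in rhabdomyolysis was measured in cDC1 sums of all 6 libraries, since only 1 rhabdomyolysis library reached 10 members. The sums of replicates 1 and 2 rest on 3 and 4 cells. Of 2897 genes tested with edgeR's quasi-likelihood test, 88 were higher in rhabdomyolysis cDC1 (3.04%) and 78 were lower (2.69%), 5.73% in all, and 25.9% of the tested genes had groups that did not overlap. Without rhabdomyolysis replicate 3 the counts were 71 and 57, and 19 of the 30 genes named by size kept their call, all 30 with the same direction. That direction was largely fixed, since only genes whose groups did not overlap were named by size. Without replicate 2 they were 63 and 56, with 29 of 30 kept.

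Irf8 was lower in every rhabdomyolysis library. It had 399, 117 and 328 CPM in rhabdomyolysis cDC1 (281 ± 147, SD, n = 3), against 1501, 1253 and 1439.8 CPM in control cDC1 (1398 ± 129, SD, n = 3). The groups did not overlap, and the log2 fold change was -2.28 ± 0.27 (SE, edgeR adjusted p = 5.93e-05). Among Xcr1 members alone the levels were 399, 249.7 and 316 CPM in rhabdomyolysis and 1568, 1509.8 and 1599 CPM in controls (log2 -2.29 ± 0.23, edgeR adjusted p = 3.54e-06). The gene was called in every alternative, with log2 changes of -3.64 to -1.74. Free RNA, measured in barcodes with at most 100 UMIs, moved the same way, with Irf8 at 65.3, 54.3 and 96.5 CPM in rhabdomyolysis and 172, 156 and 167 CPM in controls, in each library below the cDC1 level.

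Of 14 tested cDC1 markers, 3 fell in rhabdomyolysis and 0 rose (median log2 -0.95, beside -0.04 over all genes tested). They were Irf8, Ppt1 and Cadm1. Among Xcr1 members alone, 7 of 14 tested markers fell and 0 rose, while over all 2443 genes tested there 78 fell and 89 rose. Ppt1 had 399, 234 and 256 CPM in rhabdomyolysis against 888, 860.2 and 843 CPM in controls (log2 -1.66 ± 0.23, edgeR adjusted p = 0.000292). Cadm1 had 85.5, 0 and 33.2 CPM against 139, 179 and 142 CPM (log2 -2.15 ± 0.45, edgeR adjusted p = 0.00724), and its call was lost without rhabdomyolysis replicate 3 (log2 -2.08, adjusted p = 0.125). Both genes separated the groups without overlap.

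Other genes of the program did not pass the test over all members. Naaa had 627, 0 and 646 CPM in rhabdomyolysis against 1015, 1057 and 1146 CPM in controls (log2 -1.20 ± 0.42, edgeR adjusted p = 0.125), and among Xcr1 members its log2 fold change was -1.29 (edgeR adjusted p = 0.0288). Wdfy4 had 257, 93.7 and 99.8 CPM against 267, 273 and 212 CPM (log2 -1.07 ± 0.31, edgeR adjusted p = 0.0533), and -1.29 among Xcr1 members (edgeR adjusted p = 0.0288). Batf3 had 199.6, 23.4 and 166 CPM against 155, 219 and 158 CPM, with groups that overlapped (log2 -0.31 ± 0.34, edgeR adjusted p = 0.697). Levels of Ifi205 were 399, 398 and 727 CPM in rhabdomyolysis against 274, 271 and 445 CPM in controls (log2 0.76 ± 0.28, edgeR adjusted p = 0.139). Id2 gave 1198, 1592 and 1477 CPM against 893, 1012 and 1045 CPM (log2 0.51 ± 0.18, edgeR adjusted p = 0.14). Thus Naaa was below every control in all rhabdomyolysis libraries and Wdfy4 in replicates 2 and 3, while Batf3 was below them in replicate 2 alone. Id2 was numerically above every control in all rhabdomyolysis libraries and Ifi205 in replicate 3 alone. Summed over the 18 markers, the level was 3336, 1194 and 2969 CPM in rhabdomyolysis and 5138, 5017 and 5421 CPM in controls. The same sum in cDC2 was 211, 269 and 360.4 CPM in rhabdomyolysis and 502, 430.0 and 514 CPM in controls.

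Among the genes with the largest falls, Rtl8a, which marked cDC1 against cDC2, had 0, 23.4 and 19.0 CPM in rhabdomyolysis cDC1 against 304, 244 and 332 CPM in control cDC1 (log2 -4.07 ± 0.43, edgeR adjusted p = 2.72e-05). Its relative Rtl8b fell by 2.45. Cxcr3 had 114, 0 and 14.2 CPM in rhabdomyolysis against 129.6, 114 and 126 CPM in controls (log2 -2.32 ± 0.54, edgeR adjusted p = 0.0149), and it lost its call without rhabdomyolysis replicate 2 (log2 -2.05, adjusted p = 0.0513) or 3 (-1.36, adjusted p = 0.327). Cd36, a scavenger receptor that takes up apoptotic cells and lipids, had 28.5, 23.4 and 4.75 CPM against 91.2, 97.0 and 91.6 CPM (log2 -3.12 ± 0.56, edgeR adjusted p = 0.0025), but -1.94 without rhabdomyolysis replicate 3 (adjusted p = 0.172). Ccr2, the receptor for the monocyte attractant CCL2, had 199.6, 328 and 199.5 CPM against 522, 664 and 571 CPM (log2 -1.40 ± 0.25, edgeR adjusted p = 0.00241).

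Several of the other falls lay in the control members with Clec9a alone. Cd209a had 0, 0 and 19.0 CPM in rhabdomyolysis cDC1 against 296, 306 and 322 CPM in control cDC1 (log2 -4.47 ± 0.44, edgeR adjusted p = 1.45e-05), yet control Xcr1 members had 104, 0 and 0 CPM and control members with Clec9a alone 983, 1278 and 1786 CPM. Klk1, a kallikrein protease gene on the plasmacytoid list, had 0 counts in all 3 rhabdomyolysis libraries against 157, 59.7 and 53.7 CPM in controls, at least 9.94-fold lower when 3 counts over the group are taken as the floor. Its control level was 712, 249 and 263 CPM in members with Clec9a alone and 2.05, 0 and 7.70 CPM in Xcr1 members. Ctsl, a lysosomal protease, was at 932, 332 and 403 CPM in control Clec9a-alone members and at 20.5, 9.80 and 27.0 CPM in control Xcr1 members. Hpgd, a prostaglandin-degrading enzyme, and Clec4b1, a lectin, were likewise higher in members with Clec9a alone in each control. Without rhabdomyolysis replicate 3 the calls of Klk1, Ctsl and Hpgd were lost (edgeR adjusted p = 0.158, 0.127 and 0.0957). Of the 30 genes named by size, 24 could be tested among Xcr1 members, and 23 of these kept their call and direction.

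Genes that rose in rhabdomyolysis cDC1 were led by Spint1, a serine protease inhibitor, at 257, 211 and 299 CPM in rhabdomyolysis against 9.60, 12.4 and 6.31 CPM in controls (log2 4.75 ± 0.34, edgeR adjusted p = 4.56e-07). Plac8, a small cysteine-rich protein of monocytes and dendritic cells, had 3222, 6439 and 2836 CPM against 616, 489.7 and 426 CPM (log2 2.95 ± 0.26, edgeR adjusted p = 5.35e-06). Rgs1, a brake on chemokine receptor signalling, had 2281, 4519 and 979 CPM against 203, 99.4 and 202 CPM (log2 3.81 ± 0.42, edgeR adjusted p = 3.37e-05). In each of these genes the lowest rhabdomyolysis library exceeded the highest control, which the naming by size required. Socs3 and Pim1, both induced by STAT3 signalling, rose by log2 2.72 (485, 492 and 499 CPM against 107, 72.1 and 22.1 CPM) and 2.21 (428, 937 and 542 CPM against 133, 124 and 133 CPM). Mt1, a metallothionein, had 741, 2669 and 713 CPM against 134, 89.5 and 56.8 CPM (log2 3.67 ± 0.42), and Cebpb, a transcription factor of inflammatory and myeloid genes, 257, 211 and 256 CPM against 36.8, 4.97 and 3.16 CPM (log2 3.66 ± 0.46). Ifitm2, an interferon-induced membrane protein, had 855, 1826 and 950.0 CPM against 129.6, 172 and 91.6 CPM (log2 3.11 ± 0.28). AA467197, which the files list under a clone name, had 456, 960.0 and 461 CPM against 11.2, 82.0 and 0 CPM (log2 4.21 ± 0.56).

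Free RNA differed between the groups for most of these genes. Of the 15 genes with the largest rises, 12 were also higher in free RNA of all rhabdomyolysis libraries than of any control, and of the 15 with the largest falls 12 were lower there. The same share over all genes in free RNA was not counted, so these counts cannot be read as particular to the named genes. The cDC1 level exceeded the free RNA level in every rhabdomyolysis library for 8 of the 15 that rose, among them Spint1 (46.1, 28.1 and 50.1 CPM in rhabdomyolysis free RNA), Plac8 (354, 337 and 412 CPM), Rgs1, Socs3 and Pim1. It was below free RNA in every rhabdomyolysis library for 4, which were AA467197, Mt1, Cebpb and Ier3. Mt1 in free RNA was at 1855, 5663 and 1023 CPM in rhabdomyolysis and at 246, 285 and 262 CPM in controls. The part of free RNA in these rises was not tested.

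**Figure D4:**
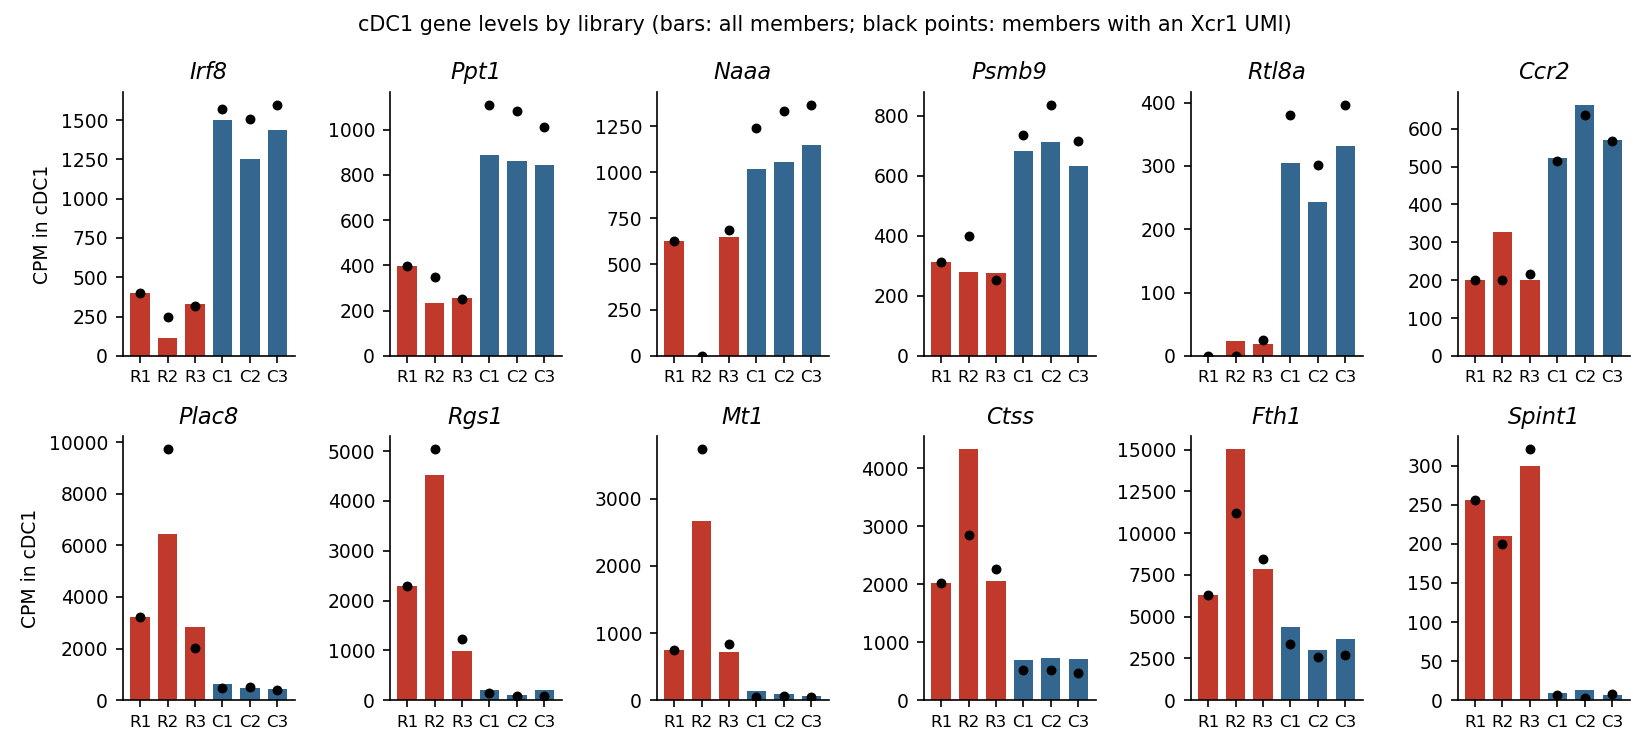
Level of 12 genes in CPM (linear axes from 0) in the cDC1 sums of rhabdomyolysis libraries R1 to R3 and control libraries C1 to C3, with bars for all members and black points for members with an Xcr1 UMI. Irf8 and Ppt1 lie lower and Spint1, Plac8 and Rgs1 higher in every rhabdomyolysis library than in any control. For Spint1, Plac8 and Rgs1 this separation was a condition of their naming.

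Presentation genes moved in part. Of 26 tested genes of cross-presentation and MHC class I loading, 0 rose and 3 fell. Psmb9 had 314, 281 and 276 CPM in rhabdomyolysis against 682, 711 and 631 CPM in controls (log2 -1.28 ± 0.22, edgeR adjusted p = 0.00158), and the class I loading chaperone Pdia3 had 257, 234 and 109 CPM against 427, 408 and 419.9 CPM (log2 -1.43 ± 0.29, edgeR adjusted p = 0.00592). Pdia3 was not called without rhabdomyolysis replicate 3 (log2 -0.88, adjusted p = 0.110). H2-Q7, a nonclassical class I gene with close paralogs between which reads may be split, was the other, at log2 -1.77, and it was not called among Xcr1 members (-1.22, edgeR adjusted p = 0.0596). Of 17 tested class II genes, 3 rose and 2 fell. Ctss had 2025, 4332 and 2062 CPM in rhabdomyolysis against 691, 731 and 701 CPM in controls (log2 1.91 ± 0.24, edgeR adjusted p = 9.22e-05), but its free RNA level was 2593, 2732 and 1758 CPM in rhabdomyolysis. Ifi30, a lysosomal thiol reductase, had 827, 1616 and 1477 CPM against 467, 539 and 359.9 CPM (log2 1.51 ± 0.23), and Lgmn, an endopeptidase, rose by 1.93. H2-Ob, a chain of the class II loading inhibitor, fell by 1.60, and the class II chain H2-Ab1 itself had 12575, 16132 and 12882 CPM against 10491, 11368 and 11326 CPM (log2 0.28 ± 0.17, edgeR adjusted p = 0.41).

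Stress-response lists gave more rises than falls. Of 6 tested glucocorticoid-response genes 5 rose and 0 fell, with Fkbp5, a chaperone of the glucocorticoid receptor, at 171, 187 and 61.8 CPM in rhabdomyolysis against 8.00, 17.4 and 15.8 CPM in controls (log2 2.89 ± 0.54, edgeR adjusted p = 0.00357). Il1r2, a decoy receptor for interleukin 1 that neutrophils also express, had 57.0, 258 and 76.0 CPM in rhabdomyolysis and 0 counts in controls, at least 45.1-fold higher with 3 counts over the group as the floor. Its free RNA level was 154, 326.5 and 67.4 CPM in rhabdomyolysis and 9.91, 5.77 and 10.9 CPM in controls. Dusp1, a phosphatase that ends MAP kinase signals, rose by 1.73. Nfkbia and Cxcr4 were the other called genes of the glucocorticoid list, and Tsc22d3 was not called. Nfkbia and Dusp1 are also in the immediate early list, Cxcr4 in the receptor list and Il1r2 in the neutrophil list. The Nfkbia call was lost without control replicate 1 (edgeR adjusted p = 0.0550) or rhabdomyolysis replicate 2 (0.0555) or 3 (0.0575). Of 21 tested immediate early and dissociation genes 6 rose and 2 fell, with Fos at 3365, 2763 and 2304 CPM against 1248, 969.5 and 1686 CPM (log2 1.05 ± 0.22, edgeR adjusted p = 0.00769), a call lost without control replicate 1 (log2 0.99, adjusted p = 0.0599) or 2 (0.86, adjusted p = 0.0786). The chaperone Hspa8 fell by 0.91, a call lost without control replicate 3 (log2 -0.83, adjusted p = 0.0602). Of 13 tested heme, iron and oxidative stress genes 4 rose and 0 fell, and these were Fth1, Mt1, Prdx6 and Nfe2l2. Prdx6 lost its call without rhabdomyolysis replicate 3 (edgeR adjusted p = 0.0817). The Nfe2l2 call was lost without any 1 control replicate, or without rhabdomyolysis replicate 2 or 3 (edgeR adjusted p = 0.0689 to 0.183). The ferritin heavy chain gene Fth1 had 6273, 15055 and 7885 CPM against 4362, 2993 and 3672 CPM (log2 1.35 ± 0.25, edgeR adjusted p = 0.00354), beside 20413 to 30439 CPM in rhabdomyolysis free RNA.

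Inflammatory and survival genes gave few calls. Of 7 tested chemokines and cytokines 2 rose and 0 fell. Cxcl16, a membrane-bound chemokine, had 285, 351 and 314 CPM in rhabdomyolysis against 117, 112 and 139 CPM in controls (log2 1.35 ± 0.23, edgeR adjusted p = 0.00156). Il1b had 0, 46.8 and 451 CPM against 25.6, 47.2 and 37.9 CPM (log2 2.98 ± 0.54, edgeR adjusted p = 0.00262), a rise that turned to -0.56 without rhabdomyolysis replicate 3 (adjusted p = 0.870). Of 12 tested receptors 2 rose and 2 fell, and Cxcr4, the receptor for CXCL12, was among the rises with 57.0, 421 and 57.0 CPM against 1.60, 2.49 and 12.6 CPM (log2 4.60 ± 0.86, edgeR adjusted p = 0.00354). Of 15 tested type I interferon genes 2 rose and 0 fell (median log2 0.61), of 8 apoptosis and survival genes 1 rose and 0 fell, and of 13 adhesion and costimulation genes 1 rose and 1 fell. None of the 10 glycolysis, 32 oxidative phosphorylation and 36 ribosomal protein genes was called in the edgeR fit across 2897 genes, in which 524 genes had an unadjusted p under 0.05.

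**Figure D5:**
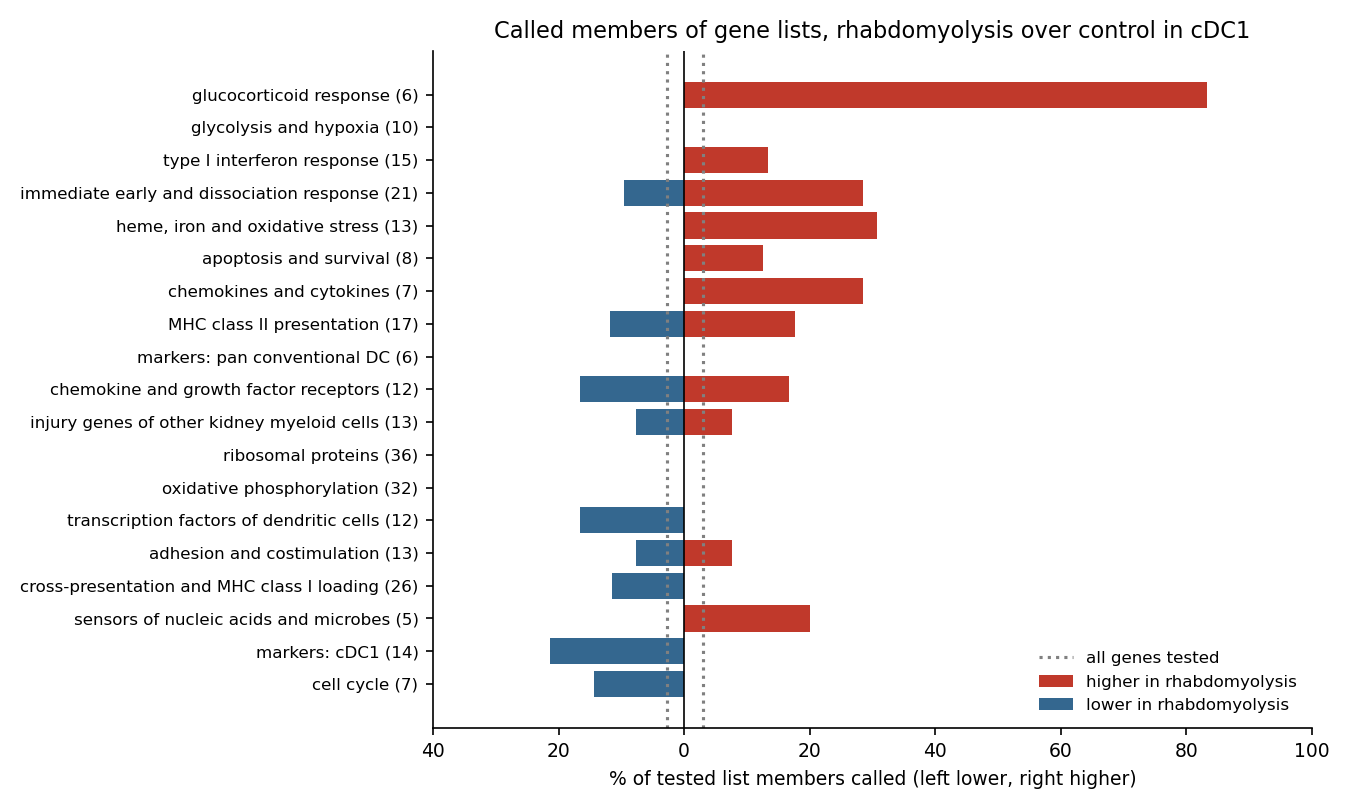
Percentage of the tested genes of each list (number tested in parentheses) called higher (right, red) or lower (left, blue) in rhabdomyolysis than in control cDC1, with dotted lines at the 3.04% and 2.69% of all tested genes. The glucocorticoid list has 5 of 6 called higher and the cDC1 markers 3 of 14 called lower. Lists share some genes, among them Nfkbia and Dusp1 of the glucocorticoid and immediate early lists.

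Markers of other cells were summed in cDC1 beside these results. The monocyte list was at 3450, 7048 and 3306 CPM in rhabdomyolysis and 1351, 1332 and 1212 CPM in controls, with Plac8 the largest contributor and 4 of its 10 genes at 0 in every cDC1 sum. The neutrophil list was at 57.0, 258 and 90.3 CPM in rhabdomyolysis and at 4.80, 2.49 and 0 CPM in controls, with 4 of 9 genes at 0 and Il1r2 the main member. The macrophage list, without the C1q genes of the rule, was at 684, 164 and 703 CPM in rhabdomyolysis and 984, 607 and 909 CPM in controls. T cell markers were at 0, 0 and 9.50 CPM and 22.4, 12.4 and 18.9 CPM, and NK markers at 199.6, 0 and 128 CPM and 118, 92.0 and 97.9 CPM, with 6 of 9 NK genes at 0. B cell markers were at 57.0, 0 and 61.8 CPM in rhabdomyolysis and 227, 266 and 155 CPM in controls, and tubule markers at 0, 0 and 0 CPM and 73.6, 24.9 and 259 CPM. The part of such RNA in the differences between groups was not tested.

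The response to rhabdomyolysis was compared between cDC1 and cDC2 as an interaction across all 6 libraries. Of 5201 genes tested with edgeR's quasi-likelihood test, 37 responded more positively in cDC1 (0.711%) and 36 less positively (0.692%), 1.4% in all. The median over all genes tested was -0.12, and the cDC2 sums of rhabdomyolysis replicates 2 and 3 held 20917 and 10386 CPM of erythroid genes. 2410006H16Rik, a noncoding RNA gene, had 1283, 960.0 and 727 CPM in rhabdomyolysis cDC1 against 656, 659 and 698 CPM in control cDC1, while cDC2 had 134, 188 and 123 CPM in rhabdomyolysis against 587, 702 and 587 CPM in controls (log2 difference 2.40 ± 0.28, edgeR adjusted p = 2.6e-07). Ccl17, a ligand of CCR4 made by activated dendritic cells, had 0, 0 and 38.0 CPM in rhabdomyolysis cDC1 against 49.6, 403 and 9.47 CPM in control cDC1, and 236, 984 and 583 CPM in rhabdomyolysis cDC2 against 123, 9.71 and 6.76 CPM in control cDC2 (log2 difference -6.11 ± 0.96, edgeR adjusted p = 9.33e-05). Counts of calls depended on the set and the libraries. With Xcr1 members alone 93 and 37 genes were called, without control replicate 1 the counts were 19 and 10, and without rhabdomyolysis replicate 3 they were 17 and 28. The lower count was also 23 without control replicate 2 and 22 without rhabdomyolysis replicate 1, and with library totals in place of scaling factors the split was 54 and 31.

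The ligands of the pathway were read in all passing barcodes together, where fewer cells of a type and less RNA per cell cannot be told apart. Of 12091 genes tested, 24.1% were higher in rhabdomyolysis and 21.6% lower, 45.7% in all. Xcl1, the XCR1 ligand, had 9.77, 1.08 and 42.4 CPM in rhabdomyolysis against 161, 172 and 135 CPM in controls (log2 -2.82 ± 0.80, edgeR adjusted p = 0.0187). The groups did not overlap, but the call was lost without control replicate 2 (log2 -2.76, adjusted p = 0.0514) or rhabdomyolysis replicate 1 (-2.57, adjusted p = 0.0854). Flt3l, the growth factor of the lineage, had 6.20, 4.95 and 6.50 CPM against 19.3, 18.2 and 15.9 CPM (log2 -1.30 ± 0.17, edgeR adjusted p = 0.000385). T cells, a known source of both ligands, differed in share between the groups as given above. With library totals the median of all genes moved to -0.30, and Xcl1 and Flt3l were at log2 -3.10 and -1.60. cDC1 themselves had 0 Xcl1 counts.

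Antibody tags gave a readout that the rule did not use. The F4/80 tag, which binds a macrophage surface protein, took 16.7%, 16.3% and 24.4% of tag UMIs of cDC1 in rhabdomyolysis and 31.8%, 31.0% and 19.3% in controls. In C1q-high macrophages it took 57.9%, 50.0% and 46.3% in rhabdomyolysis and 70.6%, 68.3% and 65.0% in controls. Over the 4 libraries with at least 10 cDC1 the share was 26.6% ± 5.89 in cDC1 and 62.6% ± 11.1 in macrophages (SD), lower in 4 of 4 libraries, with an exact sign-flip p of 0.125, the smallest that 4 libraries allow. Against cDC2, at 36.7% ± 7.89, it was also lower in 4 of 4 (exact p = 0.125). The CD8a tag was at 19.1% in cDC1 and 14.4% in cDC2, higher in 4 of 4 libraries (exact p = 0.125), but per 1000 gene UMIs it was higher in 3 of 4, at 0.630 and 0.528. The CD4 tag share was also higher in 4 of 4 libraries, at 13.1% in cDC1 and 11.7% in cDC2 (exact sign-flip p = 0.125). Per 1000 gene UMIs the CD4 tag was higher in 2 of 4, at 0.441 and 0.434. Tag shares add up to a fixed whole, so a low share of one tag raises the others.

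Few cDC1 carried transcripts of maturation, and a minority were cycling. Members had to hold an Xcr1 or Clec9a UMI, so any mature cDC1 with neither gene detected lie outside these shares. A UMI of Ccr7, Fscn1 or Ccl22, genes of dendritic cells that mature and leave for lymph nodes, was found in 0 of 3, 0 of 4 and 1 of 16 cDC1 in rhabdomyolysis and in 2 of 51, 3 of 38 and 0 of 24 in controls. The 1 of 16 is 6.25% with an exact 95% interval of 0.158% to 30.2%, against 3.92% and 7.89% in controls 1 and 2, and no difference was detectable with these numbers of cells. Cycling cells, with 2 or more UMIs of 10 cell cycle genes, were 1 of 3, 0 of 4 and 0 of 16 in rhabdomyolysis cDC1 and 9 of 51 (17.6%), 7 of 38 (18.4%) and 3 of 24 (12.5%) in control cDC1. In cDC2 they were 0 of 19, 0 of 28 and 1 of 46 in rhabdomyolysis, against 5 of 107 (4.67%), 10 of 115 (8.70%) and 9 of 75 in controls, so that both cell types had few in rhabdomyolysis. Depth per cDC1 was similar between the groups, as given above. Hmgb2, a chromatin protein of dividing cells, was the only cell cycle gene of 7 tested to be called in the rhabdomyolysis comparison, with 171, 234 and 195 CPM in rhabdomyolysis against 362, 569 and 363 CPM in controls (log2 -1.15 ± 0.28, edgeR adjusted p = 0.0183). It was not called without control replicate 2 (log2 -0.92, adjusted p = 0.0952) or rhabdomyolysis replicate 3 (-1.17, adjusted p = 0.105).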

How the data were processed

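Gene and antibody-tag UMI counts per barcode were deposited by the authors as unfiltered 10x matrices, raw and not normalized, and were made with Cell Ranger against mm10, per the submitters' processing notes. Library totals ran from 10816727 to 22656666 gene UMIs. Members and gene lists were chosen with earlier results of these data known. Counts were summed per library and cell set and tested with edgeR 4.0.16 (R 4.3.3, quasi-likelihood test, TMM scaling, default expression filter, Benjamini-Hochberg adjustment, called at an adjusted p under 0.05), with DESeq2 1.42.0 as the alternative. Genes of the rule were not tested, nor was Cd209a between cDC1 and cDC2. The rhabdomyolysis comparison and the interaction had been planned for libraries with 10 or more members, but only 1 rhabdomyolysis library had them, so all 6 libraries entered, a choice made after seeing the data. Scripts were tested on simulated data with log2 changes of 1 or 2 in either direction. Of the changed genes tested, cDC1 over cDC2 called 30 of 70 at log2 1 and 91 of 98 at log2 2. Rhabdomyolysis over control called 12 of 71 and 42 of 62, and the interaction 1 of 72 and 21 of 92. A gene not called in these fits is therefore not shown to be unchanged. No caller removed doublets. Genes named by size were the 15 (5 for the interaction) with the largest change per direction among called genes with an average log2 CPM of at least 6. For cDC1 over cDC2 they also had to move alike in every library. For rhabdomyolysis over control their groups were not to overlap. The interaction genes were named with no condition on direction per library or on overlap. Other genes came from the lists. In all passing barcodes, same-numbered libraries of the groups correlated in their deviations (0.273, 0.235 and 0.171). The labels do not say that the numbers pair libraries, and differently numbered libraries were not compared, so a pairing was not settled. The ligand results above come from the fit without a replicate block. Adding the block changed neither ligand call (Xcl1 log2 -3.48, Flt3l -1.30).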

Additional observations from a re-analysis of the deposited data

Results flagged for a closer look

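The interaction test across 5201 genes found a response to rhabdomyolysis that differed between cDC1 and cDC2 for the following genes, given as the cDC1 log2 response minus the cDC2 log2 response with edgeR's quasi-likelihood test. Cxcl2, a neutrophil attractant, differed by 5.89 (adjusted p = 0.0266), with 0, 234 and 323 CPM in rhabdomyolysis cDC1 against 0 counts in control cDC1, at least 121-fold higher with 3 counts over the group as the floor, and 262, 1356 and 272 CPM in rhabdomyolysis cDC2 against 6.26, 21.2 and 108 CPM in control cDC2. Its rhabdomyolysis free RNA held 3609.8, 2672 and 2340.4 CPM, and the call was lost without control replicate 1 or 3 and without rhabdomyolysis replicate 1 or 3. Bcl11a, a transcription factor of dendritic and B cells, differed by 2.55 (adjusted p = 0.00681), 2410006H16Rik by 2.40 (adjusted p = 2.6e-07), the noncoding RNA gene Zfas1 by 2.32 (adjusted p = 2.97e-05) and AW112010 by 2.31 (adjusted p = 0.000951). For Zfas1 the levels were 371, 468 and 347 CPM in rhabdomyolysis cDC1 against 184, 174 and 167 CPM in control cDC1, and 57.4, 77.7 and 35.8 CPM in rhabdomyolysis cDC2 against 127, 153 and 108 CPM in control cDC2. In the opposite direction Ccl17 differed by -6.11 (adjusted p = 9.33e-05), the protease inhibitor gene Ctla2a by -5.36 (adjusted p = 0.0149), the osteopontin gene Spp1 by -4.00 (adjusted p = 5.87e-05), Cd24a by -3.35 (adjusted p = 0.000203) and AA467197 by -3.08 (adjusted p = 0.000125). Cd24a was at 171, 70.2 and 104 CPM in rhabdomyolysis cDC1 against 171, 184 and 180.0 CPM in control cDC1, and at 19.1, 32.4 and 43.7 CPM in rhabdomyolysis cDC2 against 1.04, 11.5 and 5.41 CPM in control cDC2. Without rhabdomyolysis replicate 3, Bcl11a, Spp1 and Cd24a were not called either, Bcl11a was not called without rhabdomyolysis replicate 2, Ctla2a not without control replicate 1 or 2, and AA467197 not without control replicate 2 (-1.10, adjusted p = 0.739). With Xcr1 members the AA467197 difference turned to 0.44 (adjusted p = 0.896). The fitted values of genes with libraries at 0 depend on the prior count.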

How the results depend on the processing

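For cDC1 over cDC2, 369 genes were higher and 453 lower. DESeq2 gave 207 and 218, removal of barcodes above the 99th percentile of UMIs or with 2 or more UMIs of another lineage list gave 90 and 101, and leaving out 1 library gave 195 to 438 higher and 210 to 523 lower. For rhabdomyolysis over control, with 88 higher and 78 lower, that removal gave 21 and 24 in 767 genes tested, DESeq2 gave 44 lower, no expression filter 168 lower and 2 or more UMIs of Xcr1 and Clec9a 43 lower, while leaving out 1 library gave 60 to 105 higher and 56 to 85 lower. For the interaction, with 37 higher and 36 lower, DESeq2 gave 11 and 14, that removal 16 lower, Xcr1 members 93 higher, library totals 54 and 31, and leaving out 1 library 17 to 34 higher and 10 to 32 lower. Bst2 (-0.34), Ly6c2 (-2.41) and AA467197 in the interaction (0.44) reversed with Xcr1 members, and Il1b without rhabdomyolysis replicate 3 (-0.56, up to 3.24 without replicate 2); beyond fewer genes or samples, the cause was not tested. Xcl1 ranged from -4.65 to -2.24 without 1 library. The maturation share in rhabdomyolysis replicate 3 minus the control mean was 2.31 percentage points with 1 UMI and -1.75 with 2 UMIs, with no test possible for 1 library. The comparison with libraries of 20 or more members was not run, since none of the rhabdomyolysis libraries had them. Among genes printed for rhabdomyolysis over control, 991 results under alternatives kept direction and side of the threshold, 130 lost the call, 15 gained it and 1 reversed.

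In cDC1 same-numbered libraries showed little common deviation (correlations 0.0105, 0.0387 and -0.0116). The sums of rhabdomyolysis replicates 1 and 2 rest on 3 and 4 cells, so these values cannot decide on a pairing. With the replicate block 83 genes were higher and 81 lower in rhabdomyolysis, and the exact p of the share, permuted within pairs, was 0.25, the smallest that 3 pairs allow. The block was not used for cDC1 over cDC2, which already blocks on the library.

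The number of cells limits the rhabdomyolysis comparison, where the sums of replicates 1 and 2 rest on 3 and 4 cells and 2897 genes passed the filter, against 5913 between cDC1 and cDC2.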

Other observations

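Clec9a was also seen outside the rule, in C1q-high macrophages. In rhabdomyolysis macrophages 0.397%, 0% and 0% of barcodes had a Clec9a UMI, where 0 of 746 and 0 of 544 barcodes allow shares of up to 0.402% and 0.551% (3 counts of the total), at median depths of 5130 to 7819 gene UMIs. In control macrophages the share was 8.56%, 8.34% and 8.91%, at median depths of 3638 to 4169, while 0.448%, 0.854% and 1.55% had an Xcr1 UMI. Control T cells, which should lack the gene, had Clec9a in 0.737%, 0.686% and 0.240% of barcodes at median depths of 3711 to 3884 UMIs. Free RNA held 2.56, 0 and 0 CPM of Clec9a in rhabdomyolysis and 19.8, 17.3 and 19.7 CPM in controls. Control macrophages with an Xcr1 or Clec9a UMI had 74.5, 70.8 and 171 CPM of Naaa, against 52.4, 52.6 and 55.5 CPM in macrophages without one and 1015, 1057 and 1146 CPM in cDC1. Their Irf8 level was 372, 307 and 451 CPM, against 324, 306 and 312 CPM in macrophages without one.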
